A study of Arabidopsis thaliana with 10 samples.

Results

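HEMB1, HEME1, HEME2 and CHLI2 are nuclear genes of Arabidopsis thaliana for enzymes that make tetrapyrroles, the ring molecules that include chlorophyll and haem. They were taken by name as the 4 genes, of 13350 with a probe set of their own on the array, and each had 1 probe set. Their transcripts were measured in vegetative shoot apices on 10 Affymetrix arrays, 1 sample per array, in 5 groups of 2. The groups differed in the activity of CIN-TCP genes, whose transcription factors restrain growth in young leaves and act during leaf maturation. All plants grew on soil under short days.

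The miR-3TCP group, sampled at 14 DAS (the age code of the labels), carried a 35S transgene for a designed microRNA that targets TCP5, TCP13 and TCP17. The miR319b group, sampled at 17 DAS, carried a 35S transgene for the endogenous microRNA that targets TCP2, TCP3, TCP4, TCP10 and TCP24. The octa group, sampled at 18 DAS, was read as the design's combination of both microRNAs against 8 CIN-TCP genes. The BLS>>TCP4 group, sampled at 14 DAS, expressed TCP4 under BLS, a promoter active in leaves. It was in the Ler accession. The miR-3TCP, miR319b and octa plants were in the Col accession, and the unaltered Col group was sampled at 14 DAS. Age therefore cannot be told apart from genotype when miR319b or octa is set against a 14 DAS group or octa against miR319b, nor accession from TCP4 expression in BLS>>TCP4.

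Tetrapyrrole synthesis takes place in plastids. Glutamate is turned into aminolevulinic acid (ALA), and a common series of enzymes builds protoporphyrin from it. There the pathway divides. Insertion of magnesium by magnesium chelatase leads to chlorophyll, and insertion of iron leads to haem. HEMB1 encodes ALA dehydratase, the enzyme that joins ALA molecules into porphobilinogen. HEME1 and HEME2 encode uroporphyrinogen decarboxylases, which act later on the common route. CHLI2 encodes an isoform of the CHLI subunit, the ATPase of magnesium chelatase, at the entry to the chlorophyll branch. The pathway is known for its high demand in greening leaves, where chlorophyll is made together with the proteins that bind it.

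Values are MAS5 signals on a linear scale with a median of 50 on every array. The members were bright. Their mean signals over all arrays were 1018 for HEMB1, 740 for HEME1, 1039 for HEME2 and 333 for CHLI2, and between 81.4% and 95.8% of the probe sets tested were dimmer. The 2 BLS>>TCP4 arrays stood apart, with mean signals over all probe sets of 191 and 198 against 141 to 156 on the other 8, and with 99th percentiles of 2699 and 2812 against 1554 to 1929. Replicates of that group also differed more, with a standard deviation of their log2 difference of 0.44 against 0.24 to 0.30 in the other groups. None of the 8 altered CIN-TCP genes is reported here, so the genotypes were not checked at the level of the targeted genes. Of the shoot meristem markers, 1 of 10 had a probe set of its own. This was CLV3, a stem cell peptide gene, and its signals of 0.65 to 7.26 lay below the level needed for testing.

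HEMB1 (AT1G69740) had signals of 1187 and 1157 in miR-3TCP, 724 and 726 in miR319b, 699 and 666 in octa, 1220 and 1424 in BLS>>TCP4, and 1064 and 1316 in Col. The miR319b and octa arrays lay below all the others. The other 3 groups overlapped in part.

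HEME1 (AT3G14930) had 782 and 1044 in miR-3TCP, 361 and 314 in miR319b, 413 and 475 in octa, 1047 and 1336 in BLS>>TCP4, and 671 and 958 in Col. It was lowest in miR319b, whose arrays lay below those of octa, and the Col replicates differed widely. HEME2 (AT2G40490), the other gene for this decarboxylase step, had 1051 and 1238 in miR-3TCP, 572 and 562 in miR319b, 650 and 739 in octa, 1760 and 1768 in BLS>>TCP4, and 975 and 1075 in Col. Here too miR319b was lowest and octa next, and BLS>>TCP4 lay above every other group.

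CHLI2 (AT5G45930) had 410 and 491 in miR-3TCP, 184 and 201 in miR319b, 157 and 188 in octa, 383 and 531 in BLS>>TCP4, and 360 and 425 in Col. The miR319b and octa arrays overlapped each other and lay below the other 6.

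**Figure D1:**
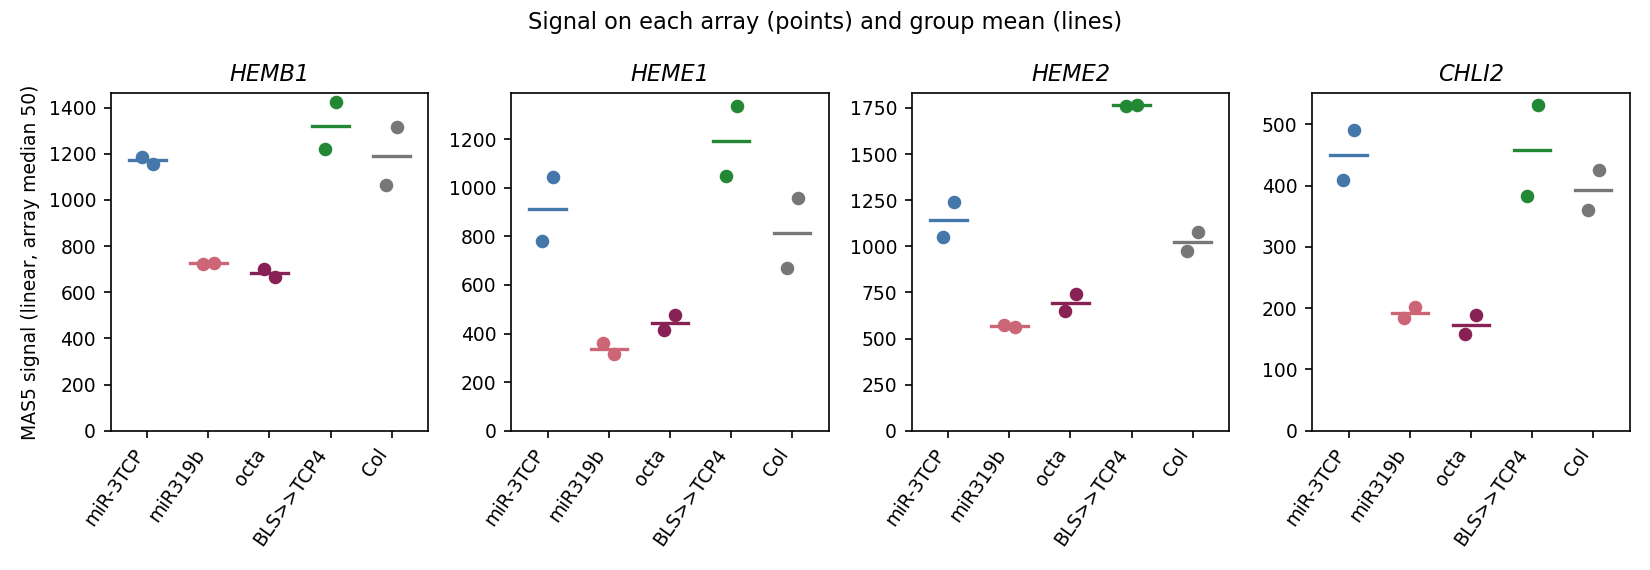
MAS5 signal (linear scale, array median 50, vertical axis from 0) of each member on the 2 arrays of each group (points), with the group mean (line). In all 4 panels the miR319b and octa points lie below those of miR-3TCP, BLS>>TCP4 and Col, and HEME2 reaches 1760 and 1768 in BLS>>TCP4.

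By group mean, the order of levels was the same for HEME1 and HEME2: BLS>>TCP4, miR-3TCP, Col, octa and miR319b, from high to low. In both, miR-3TCP and Col overlapped and the other neighbours did not. HEMB1 ran BLS>>TCP4, Col, miR-3TCP, miR319b and octa. Its Col arrays overlapped with BLS>>TCP4 and with miR-3TCP, which did not overlap each other. CHLI2 ran BLS>>TCP4, miR-3TCP, Col, miR319b and octa, with overlap among the first 3 and between the last 2. As the signals were scaled, the decarboxylase genes were thus lowest in miR319b, and HEMB1 and CHLI2 were lowest in octa. Quantile normalization, which gives all arrays the same distribution of signals, changed some of these orders. HEMB1 then averaged 765 in miR319b and 783 in octa. BLS>>TCP4 was then highest for HEME2 alone, and HEMB1 averaged 1008 there against 1258 in Col. In the Col accession, the 4 arrays with the miR319b transgene were below the 4 without it for 4 of 4 members. This held for 12.7% of all 13648 probe sets tested. An earlier account of these data named the members for their calls in miR319b against Col. Those arrays are included here, so the count is a description. The mean over the arrays with the transgene, relative to those without, was 0.433 for CHLI2, 0.452 for HEME1, 0.582 for HEME2 and 0.596 for HEMB1.

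The first comparison, miR319b against Col, asked what loss of the miR319 targets alone does. All 4 members fell, with mean signals of 0.414 (HEME1), 0.490 (CHLI2), 0.553 (HEME2) and 0.609 (HEMB1) relative to Col. In this comparison 2.78% of all probe sets were called lower, meaning a Benjamini-Hochberg adjusted p under 0.05 in limma. The members had been named in an earlier account of these data for their calls here, so this count is a description. HEME1 averaged 337 ± 33.3 in miR319b and 814 ± 203 in Col (SD, n = 2 each), a log2 difference of -1.21 ± 0.21 (SE) with an adjusted p of 0.019. Counted from the lowest difference it ranked 76 among the 13648 probe sets. HEME2 averaged 567 ± 7.61 in miR319b and 1025 ± 71.2 in Col (-0.83 ± 0.13, adjusted p = 0.0136). CHLI2 averaged 192 ± 12.6 in miR319b and 393 ± 45.9 in Col (-0.97 ± 0.18, adjusted p = 0.0263). HEMB1 averaged 725 ± 1.55 in miR319b and 1190 ± 178 in Col (-0.69 ± 0.13, adjusted p = 0.0263). The median change of all probe sets was -0.01, and that of the 2730 brightest, among which the members lie, was -0.001. With any 1 of the 4 arrays left out, 0 of the 4 members were called (adjusted p from 0.0513 to 0.212), while the differences stayed between -1.47 and -0.54. In whole apices, fewer cells that express a gene and less of its RNA per cell cannot be told apart.

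The same transgene was compared on the miR-3TCP background by octa against miR-3TCP. The group means compared share no array with the previous comparison, but both came from the same fit of all arrays. Each gene therefore had the same standard error in both. Again 4 of 4 members fell, where 2.14% of all probe sets were called lower. Because the members had been named for calls in the previous comparison, these calls are not an independent test, and this count too is a description. CHLI2 averaged 173 ± 21.8 in octa and 450 ± 57.7 in miR-3TCP, a log2 difference of -1.30 ± 0.18 (adjusted p = 0.0161). Counted from the lowest difference it ranked 21 among the 13648 probe sets. HEME1 averaged 444 ± 43.4 in octa and 913 ± 185 in miR-3TCP (-1.003 ± 0.21, adjusted p = 0.0396), at rank 74. HEMB1 averaged 683 ± 23.3 in octa and 1172 ± 21.3 in miR-3TCP (-0.77 ± 0.13, adjusted p = 0.0248). HEME2 averaged 695 ± 63.4 in octa and 1144 ± 132 in miR-3TCP (-0.71 ± 0.13, adjusted p = 0.0262). The 2730 brightest probe sets had a median of -0.12. As before, leaving out any 1 of the 4 arrays ended all 4 calls (adjusted p from 0.0588 to 0.368), with differences between -1.43 and -0.59. With no filter on dim probe sets 1 of 4, CHLI2, was called, and with median centring 3 of 4, HEME1 having -0.96 (adjusted p = 0.0511).

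The comparison of octa with Col, for joint loss of the 8 CIN-TCP genes, shares arrays with both comparisons above. HEMB1 and CHLI2 fell, 2 of 4 members, where 1.55% of all probe sets were called lower. CHLI2 had a log2 difference of -1.12 ± 0.18 (adjusted p = 0.025), with mean signal in octa 0.440 of that in Col. HEMB1 had -0.78 ± 0.13 (adjusted p = 0.0265), with a ratio of means of 0.574. HEME1 (-0.83 ± 0.21, adjusted p = 0.0784) and HEME2 (-0.55 ± 0.13, adjusted p = 0.0598) did not pass, although their octa arrays lay below the Col arrays. Fitted on the 8 arrays of the Col accession alone, 4 of 4 were called, HEME1 at adjusted p = 0.0491 and HEME2 at 0.0412. With no filter, or with any 1 of the 4 arrays left out, 0 were called (adjusted p for HEMB1 and CHLI2 from 0.0661 to 0.251 with an array left out).

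The comparison of miR-3TCP with Col asked about TCP5, TCP13 and TCP17. None of the 4 members was called, by the adjusted p or at an unadjusted p under 0.05. Of all 13648 probe sets 0.00733% were called in either direction, and 401 had an unadjusted p under 0.05. HEME1 had a log2 difference of 0.17 (95% confidence interval -0.29 to 0.63), HEME2 0.15 (-0.13 to 0.43), CHLI2 0.19 (-0.22 to 0.60) and HEMB1 -0.01 (-0.31 to 0.28). These intervals do not reach the falls seen with miR319b, but they leave room for changes of about 0.3 in either direction for HEMB1 and for rises of up to 0.63 for HEME1.

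In octa against miR319b, which differ in the designed microRNA and in age (18 and 17 DAS), 0% of all probe sets were called and 1347 had an unadjusted p under 0.05. Of the 4 members 0 were called and 1, HEME2, had an unadjusted p under 0.05. HEME2 averaged 695 ± 63.4 in octa and 567 ± 7.61 in miR319b, a log2 difference of 0.28 (95% interval 0.00 to 0.56, adjusted p = 0.498). HEME1 had 0.38 (-0.08 to 0.84), HEMB1 -0.09 (-0.38 to 0.21) and CHLI2 -0.15 (-0.56 to 0.27). The decarboxylase genes were thus higher in octa on each array, HEMB1 was lower on each array, and CHLI2 overlapped. None of these differences passed the test, and with quantile normalization that of HEMB1 was 0.03. Whether that microRNA acted differently in the presence of miR319b was tested as an interaction, which was -0.34 for CHLI2 (-0.92 to 0.25), 0.21 for HEME1 (-0.44 to 0.86), 0.13 for HEME2 (-0.27 to 0.53) and -0.07 for HEMB1 (-0.49 to 0.35). None of the 4 passed, by adjusted or unadjusted p. Of all probe sets 0.00733% did so by adjusted p, and 969 had an unadjusted p under 0.05.

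**Figure D2:**
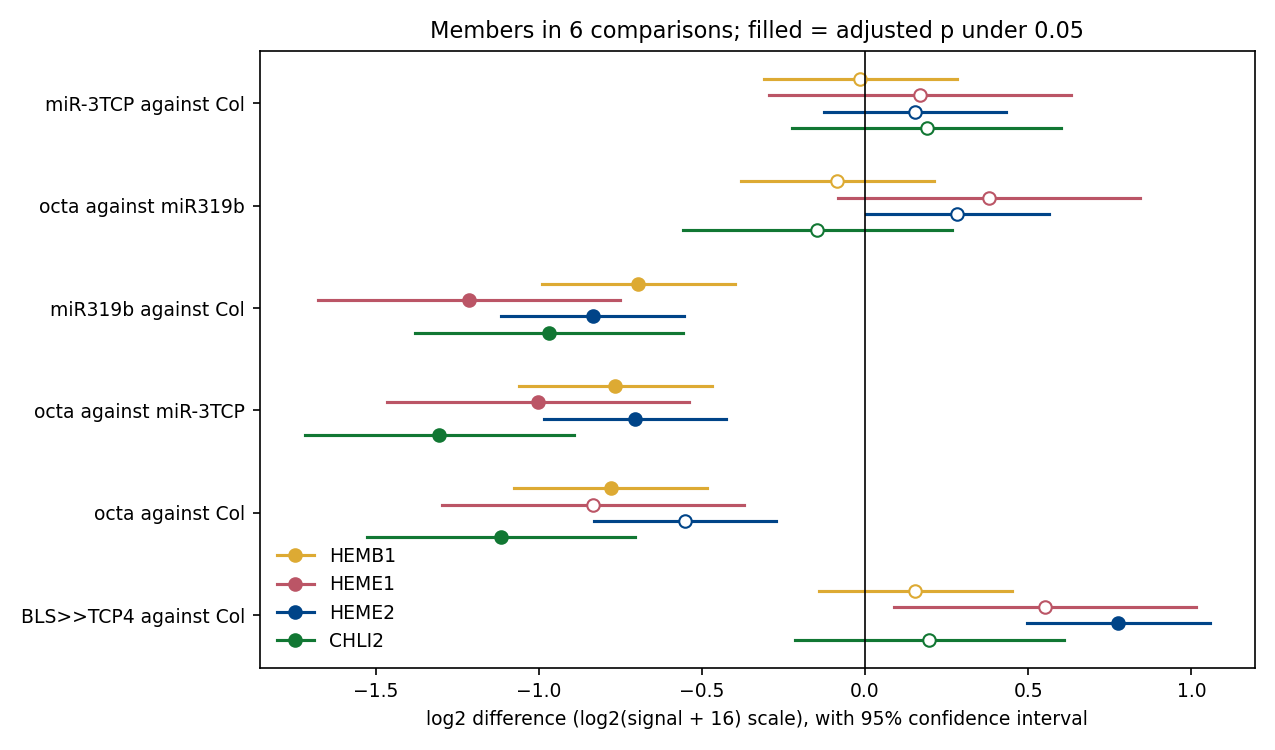
Log2 difference of each member (horizontal axis, log2(signal + 16) scale) in 6 comparisons, with 95% confidence intervals from limma; filled points passed an adjusted p of 0.05. The intervals of miR319b against Col and octa against miR-3TCP lie wholly below 0 for all 4 members, and those of miR-3TCP against Col include 0.

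The last comparison, BLS>>TCP4 against Col, concerned added TCP4 in leaves. HEME2 rose, 1 of 4 members, where 17.4% of all probe sets were called higher. It averaged 1764 ± 5.70 in BLS>>TCP4 and 1025 ± 71.2 in Col, 1.72 times the Col mean (log2 difference 0.78 ± 0.13, adjusted p = 0.00208). HEME1 averaged 1192 ± 205 in BLS>>TCP4 and 814 ± 203 in Col (0.55 ± 0.21, adjusted p = 0.0762). Its BLS>>TCP4 arrays lay above both Col arrays. HEMB1 (0.15, 95% interval -0.14 to 0.45) and CHLI2 (0.20, -0.21 to 0.61) overlapped with Col. The 2730 brightest probe sets had a median of 0.31 in this comparison. HEMB1 and CHLI2 were below, and HEME1 and HEME2 above, that value. CHLI2, with 81.4% of the probe sets tested dimmer, lay near the lower edge of that set. With quantile normalization, which gives all arrays 1 distribution of signals, that median was -0.02. HEME2 then had 0.29 (adjusted p = 0.123), HEME1 0.17, CHLI2 -0.02 and HEMB1 -0.31 (adjusted p = 0.0887), and 0 of 4 were called. HEME1 was called without Col replicate 2 (0.80, adjusted p = 0.0469) and without BLS>>TCP4 replicate 1 (0.73, adjusted p = 0.0493).

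**Figure D3:**
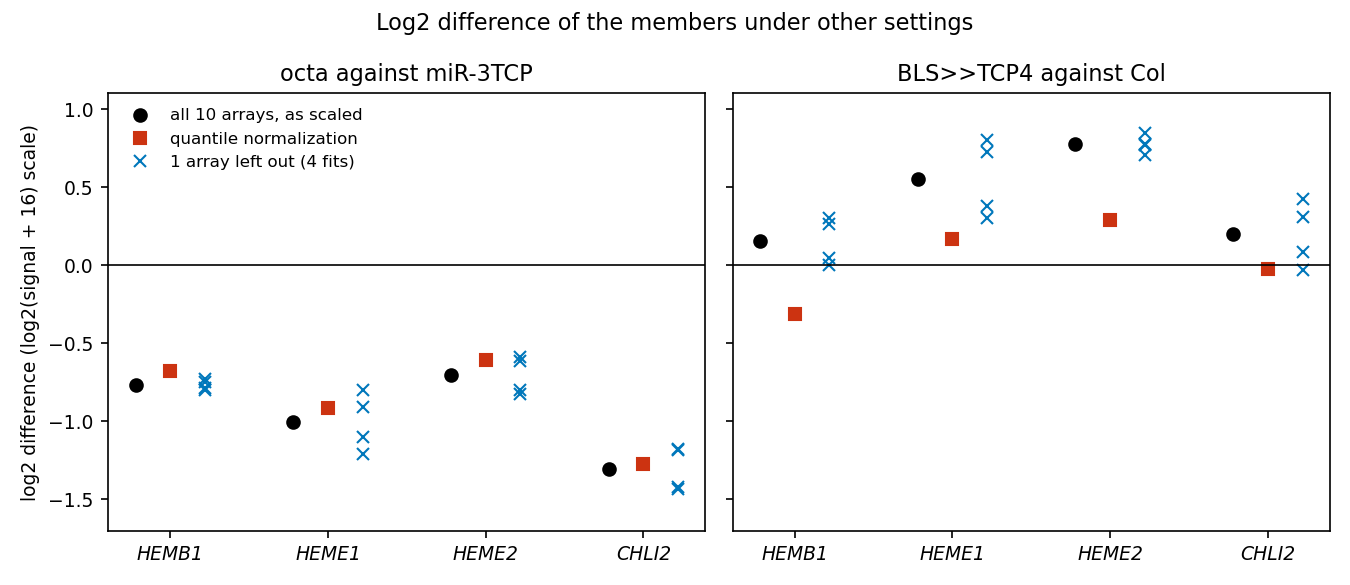
Log2 difference of each member (vertical axis, log2(signal + 16) scale) in octa against miR-3TCP (left) and BLS>>TCP4 against Col (right), as fitted on all 10 arrays, after quantile normalization, and with each of the 4 arrays compared left out in turn. On the left all points lie between -1.43 and -0.59; on the right quantile normalization takes HEMB1 to -0.31 and CHLI2 to -0.02.

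The rest of the pathway was described from lists of 57 genes for tetrapyrrole synthesis, its regulation and chlorophyll breakdown. Of these, 14 had a probe set of their own and 12 were bright enough to test, the 4 members among them. HEMA3 and hemb2, with group means between 1.85 and 16.8, were not tested. In miR319b against Col, 1 of the 8 other genes was called lower, against the 2.78% of all probe sets given above. This was HEMA2, which encodes glutamyl-tRNA reductase, the enzyme at the start of ALA formation, with signals of 49.0 and 32.7 in miR319b and 94.8 and 81.5 in Col (-0.89 ± 0.19, adjusted p = 0.0398). Its call was lost with no filter (adjusted p = 0.0878) and with any 1 of the 4 arrays left out (0.0572 to 0.275). The median of the 8 was -0.52, and that of the members -0.90.

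GSA1, for the aminotransferase that completes ALA, had signals of 523 and 485 in miR319b, 473 and 413 in octa, 709 and 749 in miR-3TCP, and 690 and 788 in Col. It was the single one of the 8 called lower in octa against miR-3TCP (-0.70 ± 0.16, adjusted p = 0.0489), where 2.14% of all probe sets were. That call was lost with any 1 of the 4 arrays left out (differences of -0.80 to -0.61). It was also lost with a pseudocount of 64 (adjusted p = 0.0568), no filter (0.0891), quantile normalization (0.0581), median centring (0.0567), no intensity trend (0.0633) and the replicate block (0.0581). In octa against Col GSA1 had -0.72 (adjusted p = 0.0522). There 0 of the 8 were called, where 1.55% of all probe sets were called lower. Of the 8, 4 had an unadjusted p under 0.05, as did 2018 of the 13648 probe sets. Fitted on the 8 arrays of the Col accession, GSA1 was called in miR319b (adjusted p = 0.0302) and octa (0.0207), each against Col. CHLM, the methyltransferase gene that follows magnesium chelatase, had -0.55 in miR319b against Col (adjusted p = 0.0748, or 0.0291 on those 8 arrays) and -0.47 in octa against Col (adjusted p = 0.177). NOL, a chlorophyll b reductase gene of chlorophyll breakdown, had -0.51 and -0.53 in these comparisons (adjusted p = 0.152 and 0.219). AT1G74470, the geranylgeranyl reductase gene that supplies the phytol tail, had 0.07 and -0.22, and SIRB, for the ferrochelatase of the sirohaem branch, -0.01 and -0.17. PORB, which encodes the light-dependent reductase late in the chlorophyll branch, had -0.47 and -0.43, with Col replicates of 1184 and 1893. For hemf2, a coproporphyrinogen oxidase gene of the common route, the values were -0.65 and -0.21. Its miR319b replicates were 117 and 52.9, and the first value was -1.13 without miR319b replicate 1 and -0.18 without replicate 2. Among these 8, the 4 arrays with the miR319b transgene lay below the 4 without it for HEMA2, GSA1, hemf2, CHLM and NOL, 5 of 8, where 12.7% of all probe sets did so.

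In BLS>>TCP4 against Col, 5 of the 8 rose and 2 fell, where 17.4% of all probe sets were called higher and 8.71% lower. CHLM averaged 3019 ± 596 in BLS>>TCP4 and 1684 ± 123 in Col (0.82 ± 0.15, adjusted p = 0.00407). AT1G74470 rose by 0.77, SIRB by 0.71, NOL by 0.65 and GSA1 by 0.64. HEMA2 averaged 23.8 ± 2.95 in BLS>>TCP4 and 88.2 ± 9.37 in Col (-1.39 ± 0.19, adjusted p = 0.000977). Background knowledge places HEMA2 among the reductase genes used outside green tissue, and it was also called lower in miR319b. The other fall was that of hemf2, to 55.8 ± 14.1 in BLS>>TCP4 against 135 ± 12.4 in Col (-1.08 ± 0.27, adjusted p = 0.0156). With 1 array left out, hemf2 was called in 1 of 4 fits, GSA1 and NOL in 2 and SIRB in 3. After quantile normalization SIRB was still called higher (0.56) and HEMA2 (-1.46) and hemf2 (-1.08) lower, whereas CHLM had 0.17, GSA1 0.25, NOL 0.46 and AT1G74470 -0.061.

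**Figure D4:**
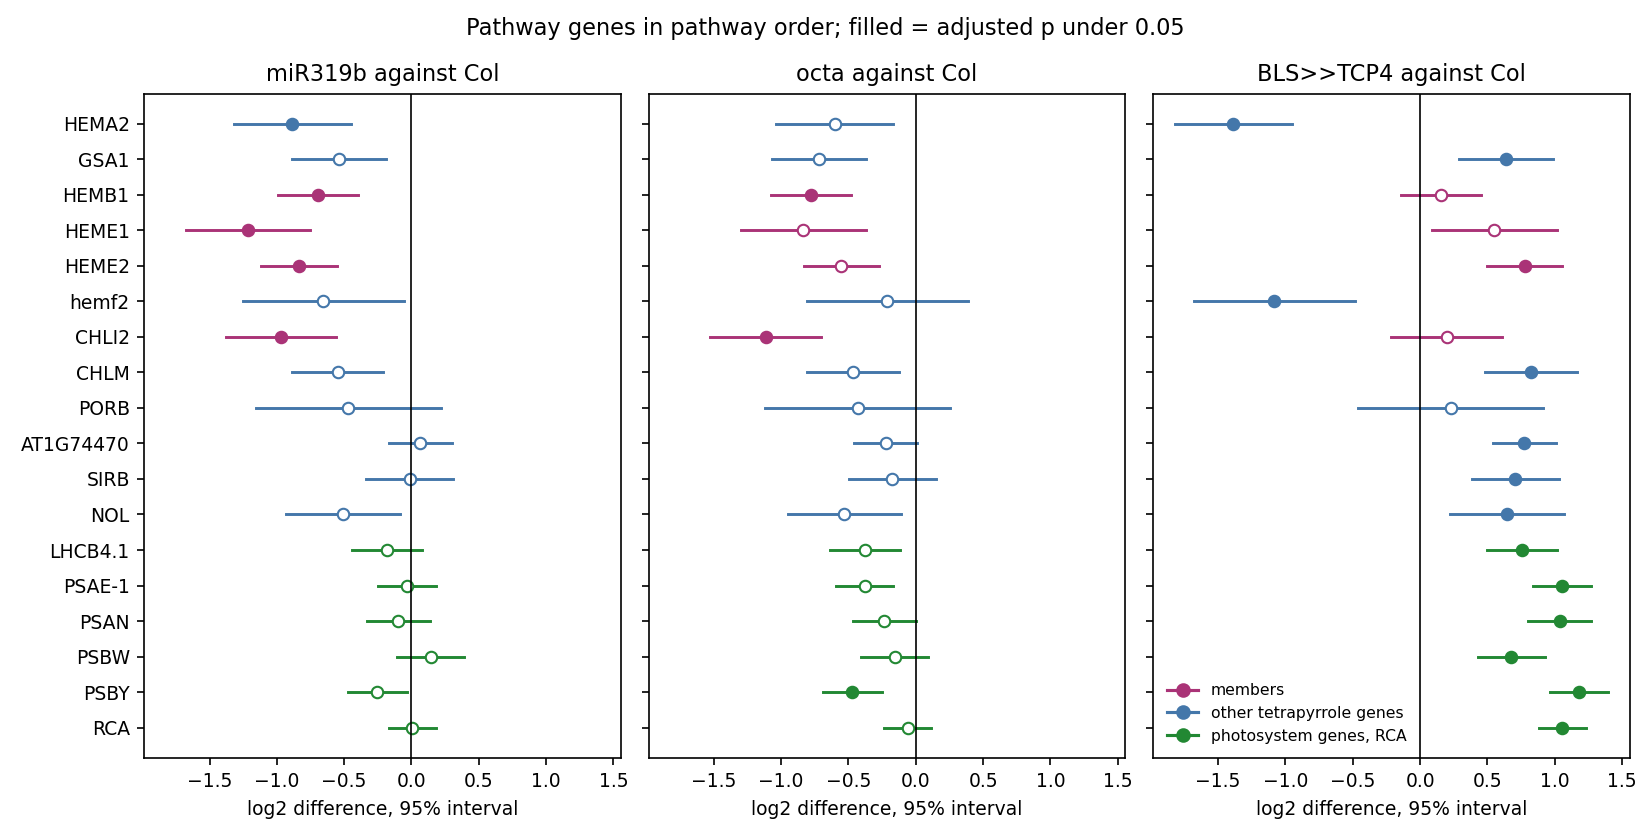
Log2 difference (horizontal axis, log2(signal + 16) scale, 95% confidence intervals) of the 12 tested tetrapyrrole genes in pathway order and of 6 photosynthesis genes, in miR319b, octa and BLS>>TCP4, each against Col; filled points passed an adjusted p of 0.05. The members fall between -1.21 and -0.69 in the left panel, where the photosynthesis genes lie between -0.25 and 0.14 (between -0.52 and 0.01, with 2 called lower, after quantile normalization, which is not drawn).

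Light-harvesting and photosystem proteins, with Rubisco activase, gave values for plastid function outside the pathway. Of 29 listed genes 6 had a probe set of their own, and all 6 were tested. In miR319b against Col 0 of the 6 were called, where 2.78% of all probe sets were called lower. Of the 6, 1 had an unadjusted p under 0.05, as did 3066 of the 13648 probe sets. With quantile normalization 2 of 6 were called lower there, where 387 of the 13648 probe sets were. The 2 were LHCB4.1 (-0.52, adjusted p = 0.0308) and PSBY (-0.46, adjusted p = 0.0351), and RCA had -0.26. PSBY, a photosystem II subunit gene, had -0.25 (adjusted p = 0.162), LHCB4.1, for a minor antenna protein of that photosystem, -0.18 (adjusted p = 0.385), and PSBW, of photosystem II too, 0.14 (adjusted p = 0.495). RCA, for Rubisco activase, had signals of 2927 and 2996 in miR319b, 2869 and 2780 in octa, and 2901 and 2992 in Col. In octa against Col PSBY fell (-0.47 ± 0.10, adjusted p = 0.0455), 1 of 6, where 1.55% of all probe sets were called lower. In octa against miR-3TCP PSAE-1, of photosystem I, fell (-0.45 ± 0.10, adjusted p = 0.0423), also 1 of 6, where 2.14% were. Both calls were lost with any 1 of the 4 arrays left out. The differences were then -0.57 to -0.38 for PSBY and -0.49 to -0.41 for PSAE-1. Both were also lost with no filter, median centring or no intensity trend (adjusted p from 0.0901 to 0.138). That of PSBY was lost too with quantile normalization (0.0896), only the groups compared (0.0535) and the replicate block (0.0536). None of the 6 had its 4 arrays with the miR319b transgene below the 4 without. In BLS>>TCP4 against Col all 6 rose, where 17.4% of all probe sets were called higher and the 2730 brightest had a median of 0.31. The rises were 0.68 to 1.18 with a median of 1.05, PSBY by 1.18, RCA by 1.06, PSAE-1 by 1.05 and PSAN by 1.04. With quantile normalization 1 of 6, PSBY, was called higher (0.34), where 1233 of the 13648 probe sets were, and LHCB4.1 turned to -0.21. Whether these genes changed differently from the 4 members was not tested.

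Markers of other cell types were few on the array. The summed signal of the 6 photosynthesis genes ranged over 15000 to 15474 in miR-3TCP, 15204 to 15236 in miR319b, 12792 to 13661 in octa, 30887 to 32097 in BLS>>TCP4 and 15794 to 16370 in Col. The sum of 4 of 7 listed stomatal genes was 384 to 430 in miR-3TCP, 289 to 339 in miR319b, 236 to 279 in octa, 542 to 900 in BLS>>TCP4 and 410 to 439 in Col. The higher sum in BLS>>TCP4 came mostly from STOMAGEN, with 684 and 390 in BLS>>TCP4 and 198 and 211 in Col. SPCH went the other way, with 131 and 62.0 in BLS>>TCP4 and 162 and 171 in Col, and FMA was 1.06 times its Col mean. MUTE, a defining gene of the stomatal lineage, was below the level for testing by its mean over all arrays. It had 37.2 and 34.1 in BLS>>TCP4 and 2.39 and 7.59 in Col. With most of the rise from STOMAGEN, this sum does not measure lineage cells. The sum of 2 of 9 epidermis and trichome markers was 147 to 170 in miR319b and 154 to 170 in octa, overlapping 102 to 159 in Col. It was 120 to 143 in miR-3TCP and 109 to 114 in BLS>>TCP4. In BLS>>TCP4 its 2 genes went opposite ways, SIM to 0.582 and GIS to 2.21 times the Col mean. The root marker PYK10, 1 of 6, had 992 and 1508 in BLS>>TCP4 against 1886 and 1917 in Col, and 1828 to 2113 elsewhere. No vascular marker of 6 had a probe set of its own. The part of these cell types in the members' differences was not tested.

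The members' profiles were compared with those of the other 7361 tested probe sets of a single gene by Pearson's r of log2(signal + 16) over the 10 arrays. The arrays fall into 5 groups and share genotype, age and accession, so r is a description. HEME1 was most like LSMT-L (r = 0.984), AT5G14260 (0.983) and AT5G38290 (0.979). AT5G14260 averaged 412 in miR319b, 458 in octa, 884 in miR-3TCP, 1039 in BLS>>TCP4 and 864 in Col. HEME2 was most like AT2G35410 (0.991), AT1G12800 (0.989) and F2KP (0.987), HEMB1 most like AT3G52110 (0.978), AT2G18940 (0.977) and AT2G29290 (0.976), and CHLI2 most like AT1G03660 (0.984), AT3G02120 (0.979) and AT5G55220 (0.975). Over the 8 arrays of the Col accession these 12 correlations were between 0.966 and 0.992. Among the members r was 0.964 for HEME1 with HEME2, 0.970 for HEMB1 with CHLI2 and 0.876 for HEME2 with CHLI2, and over the 8 arrays of the Col accession it was 0.988, 0.966 and 0.941. The gene of closest profile to HEME1 was thus not HEME2, which ranked 22, and HEMB1 ranked 6 for CHLI2.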

How the data were processed

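The deposited values are linear probe set intensity values. Per the submitters' processing notes they come from MAS5, whose settings the sources do not give, and each array's median is 50. Nothing in the labels ties replicates to separate plantings, so the p-values reflect the spread of these samples alone, possibly technical. Gene names came from the platform annotation, with symbols updated through the RefSeq gene table of TAIR10.1 (13436 of 13513 probe sets with 1 gene matched, 503 had several genes and 8730 none listed, and those were not named). Values were taken as log2(value + 16). Log2 differences are on that scale, and those of dim probe sets come out too small. Ratios of mean signals, such as those relative to Col, are of the linear values. The 64 AFFX controls and probe sets with a mean below the 40th percentile (a signal of 27.2) were left out, leaving 13648. All 10 arrays entered 1 limma fit (version 3.58.1, R 4.3.3) with a mean per group and an intensity trend. It had 5 residual degrees of freedom, and the standard error of a group difference had a median of 0.17. The number of arrays limits the precision. P-values were adjusted over all probe sets of each of 7 contrasts (Benjamini-Hochberg, 0.05). In data simulated for miR319b against Col over 13648 probe sets, 86 of 100 changes of 1 on the log2 scale and 100 of 100 of 2 were recovered, with 9 false calls. The simulated noise was normal, with the fit's own spread, equal in all groups. Real replicates of BLS>>TCP4 differed more than those of other groups, so recovery in the real arrays may differ. The genes named are the members, the tested genes of the pathway lists, up to 4 called photosynthesis genes per contrast (2 of smallest p where none was called), and the 3 closest profiles per member. The members, lists and rules were chosen with earlier results of these data known. RCA and PSBW without TCP4 expression, LHCB4.1 after quantile normalization, and the individual markers were named after their values were seen. Alternatives were other pseudocounts, filters, scalings, variance priors and sets of arrays.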

Additional observations from a re-analysis of the deposited data

Results flagged for a closer look

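For 3 genes, both arrays moved in opposite directions when miR-3TCP was added without miR319b (miR-3TCP against Col) and with it (octa against miR319b), each set against the mean of the other group. CHLI2 had log2 differences of 0.19 and -0.15, HEMA2 -0.31 and 0.28, and SIRB 0.12 and -0.16. The difference itself was tested as an interaction in limma and none passed, with adjusted p = 0.806 for CHLI2 (-0.34 ± 0.26), 0.716 for HEMA2 (0.59 ± 0.28) and 0.801 for SIRB (-0.28 ± 0.21).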

How the results depend on the processing

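Of 400 alternative values for the 4 members over 7 contrasts, 336 kept their direction and side of the threshold. In 47 the direction held and the call was lost, in 5 a call was gained, in 0 a called value changed sign, and in 12 a value that was not called changed sign. The members called in octa against Col (2) became 0 with no filter and 4 when BLS>>TCP4 was left out of the fit (the 8 Col-accession arrays). In octa against miR-3TCP (4) they became 1 with no filter and 3 with median centring, and in BLS>>TCP4 against Col (1) they became 0 with quantile normalization and 2 with the replicate block (HEME1 at adjusted p = 0.0432). With 1 array left out they ranged from 0 to 0 in miR319b against Col, octa against Col and octa against miR-3TCP, and from 1 to 2 in BLS>>TCP4 against Col. A lone sample is then assumed to vary like the other groups.

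Calls over all probe sets in miR319b against Col (549) became 238 with no filter and 1330 on the 8 Col-accession arrays, and 9 to 65 with 1 array left out. In octa against Col (249) they became 74 with no filter, 126 with median centring (33 higher), 164 without the intensity trend, 566 on the 8 arrays and 8 to 17 with 1 array left out. The split was 38 higher and 211 lower, and 53 higher and 120 lower with quantile normalization. In octa against miR-3TCP (335, 43 higher) they became 84 with no filter, 593 on the 8 arrays and 6 to 20 with 1 array left out, and quantile normalization gave 72 higher and 224 lower. In BLS>>TCP4 against Col (3564, 2375 higher) they became 1769 with only the groups compared and 1672 to 3818 with 1 array left out, and quantile normalization gave 1233 higher and 1340 lower. In miR-3TCP against Col (1) they became 2 with a pseudocount of 1 and 4 without the trend. In octa against miR319b (0) they became 2 with a pseudocount of 1, the filter at the 60th percentile or quantile normalization, and 4 on the 8 arrays. The interaction (1) gave 0 with a pseudocount of 1, and 1 to 2 with 1 array left out. With quantile normalization AT1G74470 and LHCB4.1 turned to -0.061 and -0.21 in BLS>>TCP4 against Col. The causes were not tested, beyond the fewer or more arrays and probe sets that a setting itself brings.

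Same-numbered replicates share only a number in the labels. The correlation of the difference between replicates 1 and 2 over 10 pairs of groups ranged from -0.40 to 0.45, and the replicate block gave 548, 241, 343 and 3604 calls in miR319b against Col, octa against Col, octa against miR-3TCP and BLS>>TCP4 against Col. Dim probe sets have no detection calls here, which limits HEMA2 and hemf2 more than the members.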
